A study of Mus musculus with 32 samples.

Results

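Brain and heart are the organs of this series that lie outside the eye. They were compared here on 20 of its 32 arrays, the 12 whose titles name the brain of sighted C3H mice and the 8 whose titles name the heart. An array is a 2-colour cDNA array that holds RNA of a sighted sample in 1 dye and control RNA in the other. The experimental mice are C3H animals labelled as sighted. The control is labelled C3H.pde6b-, a C3H strain that carries the retinal degeneration mutation of Pde6b, and its RNA was a pool of 6 males. The brain pool and the heart pool came from the same control mice, so the control animals are shared by both organs. The design text speaks of 6 male animals of the C3H seh line, which it calls a mutant line, and of colour flips. No label gives an age, says which arrays share an animal, or says how the sighted line was made. A single line and a single control pool per organ stand on each side, so the pool's own animals add no measured spread. Whether a difference comes from the Pde6b genotype, from other differences between the lines or from the 6 pooled mice cannot be told apart.

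Each value is the log2 of the sighted level over the control level, so a value of 1 means a level 2-fold higher in the sighted sample. The direction is likely rather than stated, because the labels do not say which dye is the numerator. It was read from retina genes on the eye arrays, where the median of 3 retina markers ran from 5.31 to 5.80 on arrays that carry the sighted RNA in Cy5 and from -5.90 to -4.54 on the Cy3 arrays. A replicate is the average of consecutive arrays with opposite dyes, of which brain had 6 and heart 4. The labels do not say that consecutive arrays are colour flips of the same sample. Once the mean of each dye orientation was removed, arrays of a pair had a mean correlation of 0.0053 in brain and -0.014 in heart across genes. No label says that replicates are separate animals, so a p-value reflects the spread of these samples alone, and that spread can be technical.

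Pde6b encodes a subunit of the phosphodiesterase that rods use to respond to light, and mice without it lose their rods early in life. Light that reaches the retina also sets the daily clock and, through the hypothalamus, acts on hormone release from the pituitary. The pituitary makes growth hormone (Gh), prolactin (Prl), the precursor of corticotropin (Pomc) and thyrotropin, of which Tshb and Cga encode the chains. The heart, in contrast, is dominated by cardiomyocytes, whose RNA is rich in transcripts for contraction and for mitochondrial energy production. The comparison asked which ratios outside the eye differ between these organs.

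The heart arrays were noisier than the brain arrays. The interquartile range of the ratios of a replicate was 0.28 ± 0.05 (SD, n = 6) in brain and 0.58 ± 0.12 (SD, n = 4) in heart, with no overlap (exact permutation test, two-sided, p = 0.0048, Benjamini-Hochberg 0.0071 over 3 tests), which is the smallest p this design allows. Missing values made up 1.01 to 5.05% of a brain array and 5.96 to 11.99% of a heart array, apart from heart array 7, at 61.6%. Heart replicate 4, which holds that array, had a value for 7224 genes, against 14032 to 15028 in the other heart replicates. Of the 12729 genes tested in both organs, 7086 had all 4 heart replicates and 5643 rested on 3. A ratio gives no level, so the labelled organs could not be checked by the levels of their markers. Of the synapse list, 24 genes were measured in enough brain replicates and 17 in enough heart replicates, while of the cardiomyocyte list 28 and 27 were. Over all genes the counts were 16114 in brain and 12796 in heart, so the list counts are no check of the organs.

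**Figure D1:**
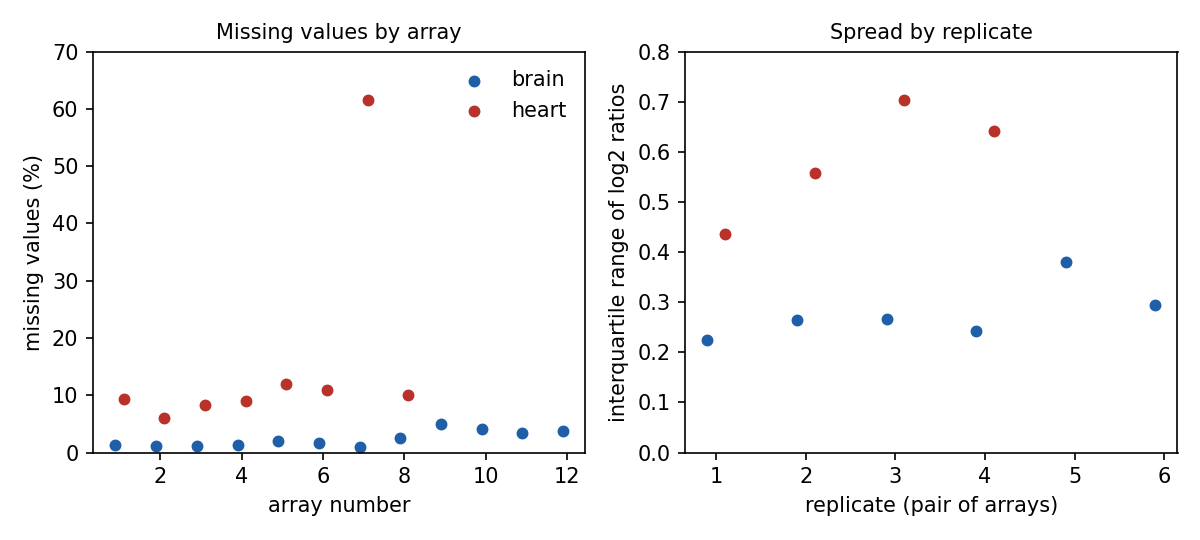
Missing values of each array in percent (left, with array number on the x axis) and the interquartile range of the log2 ratios of each replicate (right) for brain and heart. Heart array 7 stands apart at 61.6% missing, and all 4 heart replicates have a wider range than all 6 brain replicates.

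No gene passed the test of the difference between the organs. With limma in each organ and each organ's own moderated spread, 0 of 12729 genes (0%) had an adjusted p under 0.05, and the smallest was 0.571. At an unadjusted p under 0.05 there were 1105 genes (8.68%), of which 489 (3.84%) were lower in brain and 616 (4.84%) higher. The brain and heart replicates did not overlap for 904 genes (7.10%), with brain lower for 397 (3.12%) and higher for 507 (3.98%). A typical gene had a standard error of the difference of 0.21 and a 95% interval of 0.49 to either side, which is 1.40-fold. The values below are therefore measurements with their errors, and where a gene is named without an adjusted p under 0.05 its difference did not pass. Each organ alone gave 1 called gene of 16114 in brain (0.00621%) and 0 of 12796 in heart (0%), where 663 (4.11%) and 1021 (7.98%) had an unadjusted p under 0.05.

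In brain, the pituitary hormone genes with the lowest ratios were Prl and Gh. To show one of these genes in the genome, the 250 bases before the start of Prl are printed from RefSeq (assembly GRCm38.p6, chr13:27057320-27057569, plus strand), the region where lactotroph cells of the pituitary switch the gene on through the factor POU1F1. Capitals mark TATNCAT on either strand, a short form of the sequence that POU1F1 is known to prefer.
Prl: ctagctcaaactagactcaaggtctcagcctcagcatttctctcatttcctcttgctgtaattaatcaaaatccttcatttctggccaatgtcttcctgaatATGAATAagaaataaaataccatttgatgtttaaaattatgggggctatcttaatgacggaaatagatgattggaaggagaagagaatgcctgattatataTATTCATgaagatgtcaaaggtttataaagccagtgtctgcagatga
The window holds 2 matches, which begin 148 and 47 bases before the start. Of 32851 windows of the same length in the table, 7.92% hold at least 1 match and 1.26% hold 2 or more. The matches describe the letters of this window, and the arrays did not measure binding.

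Prl had brain replicate values of -2.68, -2.23, -1.40, -2.99, -3.05 and -3.78. All were below 0, and so were the 12 arrays behind them, which ranged from -3.89 to -1.20. The mean was -2.69 ± 0.81 (SD, n = 6). It did not pass in brain alone (limma adjusted p = 0.0733). It passed in 7 of 20 alternatives, among them a value needed in every replicate (0.0464) and brain replicate 3 left out (0.0341). Its adjusted p ran from 9.5e-05 to 0.481 over the 20, 4 of which leave out a heart replicate and cannot change it. The setting without heart array 7 repeats the Cy5 fit in brain. With every array on its own the arrays of a pair count singly, and with a single dye the dye effect does not cancel. In heart no replicate could be formed for Prl, since 4 of 8 arrays had no value, 2 had the ceiling value and the 2 others had -4.18 and 1.86. The difference between the organs therefore has no value for Prl.

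Gh had brain replicate values of -1.39, -1.46, -1.50, -1.52, -2.28 and -1.87, all below 0, as were 12 of 12 arrays. Its heart values were -0.49, 0.83 and 0.32, with replicate 1 missing, and did not overlap with those of brain. Array 1 of the missing replicate has no value, and its array 2 alone had -1.07, near the highest brain array at -1.16. Of the 8 heart arrays 4 lay below 0. Array 6, in the replicate at 0.83, had a log2 ratio of small whole numbers. With such values set to missing, Gh had too few heart replicates to be tested for a difference. Whether the heart signal of Gh lay above background was not tested. The difference was -1.89 with a standard error of 0.32 and a 95% interval from -2.64 to -1.14. Gh was the 1 gene called in brain (limma adjusted p = 0.0139), and its difference from heart did not pass over all genes (adjusted p = 0.571). An exact permutation test of Gh alone, 6 against 3 replicates, gave a two-sided p of 0.012 (Benjamini-Hochberg 0.012 over 3 tests), the smallest this design allows. Gh was singled out because its brain ratio was already known, so this p is a description. The brain call was lost without brain replicate 1, 2, 3, 4 or 6, with adjusted p between 0.0538 and 0.127.

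The other pituitary markers had brain means below 0 that were smaller in size. Pomc had -0.35, -1.09, 0.07, -0.44, -1.88 and -0.02 in the brain replicates, and -1.20 and 0.66 in the 2 heart replicates with a value. Both organs had values on either side of 0, and their ranges overlapped. Of the 8 pituitary markers, 5 had a probe (Gh, Prl, Pomc, Tshb and Cga), and their brain means ran from -2.69 to -0.12 with a median of -0.62. The 5 neuron markers measured in the same arrays ran from -0.06 to 0.07. All 5 pituitary means lay below 0, but Gh and Prl are 2 of the 5. Tshb had -0.12 ± 0.29 (SD, n = 5) with a replicate at 0.21, and Cga had -0.23 ± 0.18 (SD, n = 5). The part of pituitary content in these values was not tested. In bulk tissue, fewer cells of a type and less RNA per cell cannot be told apart.

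Npy, the neuropeptide Y gene of hypothalamic and cortical neurons, had 0.33, 0.69, -0.04, 0.91, 0.99 and 0.84 in brain. It was above 0 in 5 of 6 replicates, with a mean of 0.62 ± 0.40 (SD, n = 6) that did not pass. In heart 6 of 8 arrays had no value for it. The 8 neuropeptide genes measured in both organs had a median difference of 0.01, and none had an unadjusted p under 0.05. Among them Sst, Cck and Penk had brain means of 0.11, 0.03 and 0.03.

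Genes of the rapid response to stimuli and of the clock showed no common shift. Egr1, a transcription factor that neurons and muscle induce within minutes, had -1.14, -0.35, -0.47, 0.04, 0.25 and 0.03 in brain. In heart it had 0.68, 1.19 and 0.95, all above the brain values. The difference was -1.21 with a standard error of 0.25 (adjusted p = 0.571). The heart mean leaves out replicate 4, whose array 7 has no value and whose array 8 alone had -1.39. With every array on its own the difference was -0.88. Of the 15 immediate early genes tested, 7 lay below 0, with a median difference of 0.03, and Egr1 was the 1 gene with an unadjusted p under 0.05, a share no higher than that of all genes (8.68%). Fos differed by -0.24 with a standard error of 0.18 and Jun by 0.27 with 0.22.

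Among 12 clock genes, Nr1d2, a repressor of the clock loop, was the 1 gene with an unadjusted p under 0.05, which is near the share of all genes (8.68%). It had heart values of 0.52, 0.67, 0.68 and 0.44, all above its brain values of -0.32 to 0.18, a difference of -0.59 with a standard error of 0.15 (adjusted p = 0.571). Its partner Nr1d1 differed by 0.25 and Per2 by 0.26, with standard errors of 0.21 and 0.16. The median difference of the clock list was -0.05.

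**Figure D2:**
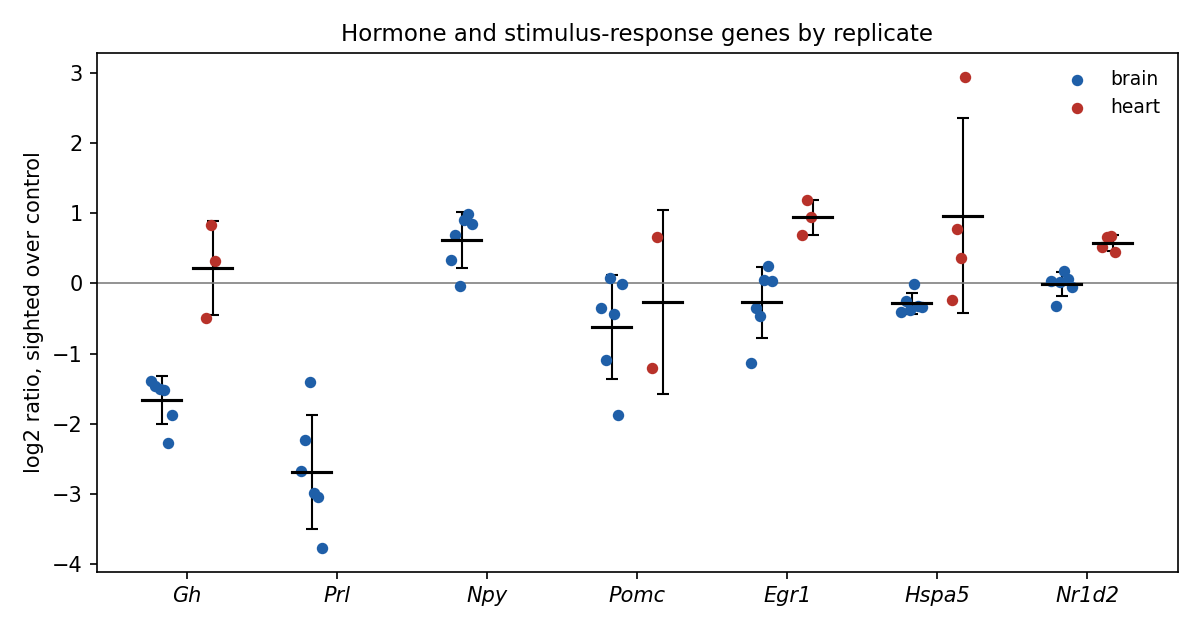
Log2 ratios of sighted over control RNA in each brain (blue) and heart (red) replicate for 4 hormone genes, Egr1, the heat shock gene Hspa5 and the clock gene Nr1d2, with mean and SD as black bars. All 6 brain values of Gh and Prl lie below 0, Prl and Npy have no heart value, and the heart values of Egr1 and Nr1d2 lie above those of brain.

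Genes of mitochondrial energy production had higher ratios in heart than in brain. Of 80 genes on the oxidative phosphorylation list, 57 had a probe and 54 were tested in both organs. Of these 52 were lower in brain than in heart, where 49.1% of all genes were. The median difference was -0.25, with a median of -0.01 in brain and 0.24 in heart, against 0.01 for the difference over all genes. For 13 of the 54 the brain replicates lay wholly below the heart replicates (3.12% of all genes), and for 9 the unadjusted p was under 0.05 in that direction (3.84%). None passed over all genes. In heart, 32 of the 54 were above 0 in every replicate, which was so for 11.7% of all genes.

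The heart shift was present in each of the 5 complexes of the respiratory chain. The median difference was -0.17 for complex I (21 genes), -0.38 for complex II (4 genes), -0.21 for complex III (6 genes), -0.28 for complex IV (11 genes) and -0.30 for the ATP synthase, complex V (12 genes). Every tested gene of complexes II to V was lower in brain. The 2 genes in the other direction, Ndufa5 and Ndufc2, belong to complex I and differed by 0.08 each.

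Uqcrc2, a core subunit of complex III, had the smallest p of the list. Its heart values were 0.52, 0.52, 0.41 and 0.45, and its brain values -0.02, 0.03, -0.25, 0.01, -0.10 and 0.04. The groups did not overlap, and the difference was -0.53 with a standard error of 0.14 (adjusted p = 0.571). Sdha, the subunit of complex II that oxidises succinate, had 0.53, 1.02, 0.43 and 0.52 in heart. Its brain values of -0.17 to 0.64 overlapped with these, and the difference was -0.55 with a standard error of 0.20. In complex V, Atp5b and Atp5c1, which encode parts of the catalytic head, differed by -0.45 and -0.46 without overlap. Cox8a of complex IV had a larger difference, -1.25, with a standard error of 0.56, since its heart SD was 1.55.

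**Figure D3:**
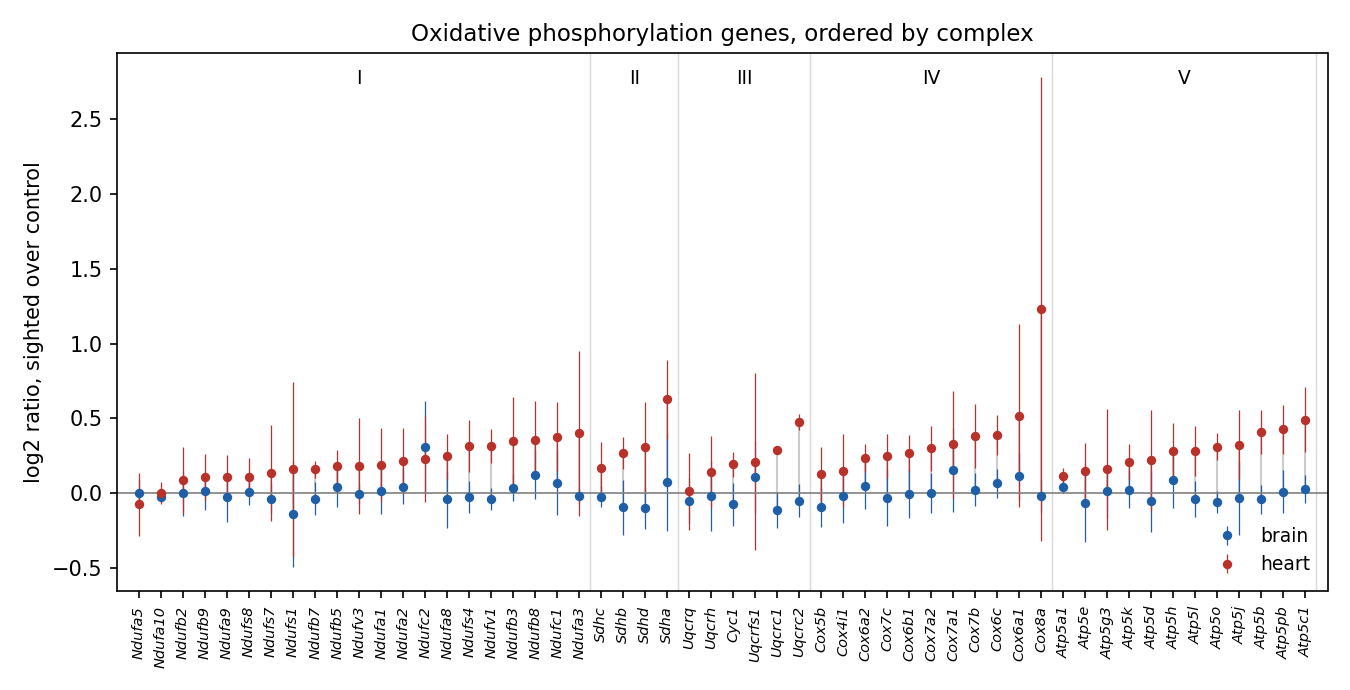
Mean log2 ratio of sighted over control RNA with SD for each of the 54 oxidative phosphorylation genes in brain (blue, n = 6) and heart (red, n = 3 or 4), ordered by complex I to V and by heart value. The heart mean lies above the brain mean for 52 of 54 genes, while most brain means lie near 0.

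This list depended on the dye. With sighted RNA in Cy5 only, 36 of 56 genes were lower in brain, with a median difference of -0.08. With sighted RNA in Cy3 only, 53 of 55 were, with a median of -0.39. On the brain arrays the list median ran from -0.00017 to 0.18 with sighted RNA in Cy5 and from -0.16 to -0.02 with Cy3. On the heart arrays it was 0.27, 0.24, 0.29 and -0.13 with Cy5 and 0.07, 0.32, 0.35 and 0.39 with Cy3. The value below 0 was that of array 7, the array with most missing values. Without it, the arrays with Cy5 gave 46 of 56 genes lower in brain and a median of -0.15. The median of the list over all tested genes lay between -0.27 and -0.21 when any 1 replicate was left out.

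Fatty acid oxidation, the main fuel route of heart muscle, had the same direction. Of 20 genes tested, 17 were lower in brain, where 49.1% of all genes were, with a median difference of -0.23. For 4 the brain replicates lay wholly below the heart replicates (3.12% of all genes), and 0 were called. Hadh, which oxidises the fatty acid chain, had 0.53, 0.65, 0.23 and 0.55 in heart and -0.33 to 0.23 in brain, a difference of -0.56 with a standard error of 0.16. Etfdh, which passes the electrons on to ubiquinone, had 0.34, 0.36, 0.48 and 0.35 in heart and -0.06 to 0.15 in brain. Ppara, a receptor that switches these genes on, differed by -0.02, and Ppargc1a, a coactivator of mitochondrial genes, by -0.26, with standard errors of 0.18 and 0.16. The median of this list was -0.14 with Cy5 only and -0.37 with Cy3 only.

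Genes of glycolysis and the citrate cycle, which feed the respiratory chain, had a median that depended on the dye. Of 29 tested, 22 were lower in brain, with a median difference of -0.20. The 5 with an unadjusted p under 0.05 (8.68% of all genes), all lower in brain (3.84%), were Aldoa of glycolysis and Cs, Idh3a, Idh3g and Fh1 of the citrate cycle. Idh3g, a subunit of isocitrate dehydrogenase, had 0.31, 0.48, 0.28 and 0.36 in heart, all above 0, and -0.26 to -0.10 in brain, all below 0. Cs, citrate synthase, had 0.53, 0.58, 0.49 and 1.18 in heart and overlapped with brain. With Cy5 only the median of this list was -0.01, with heart array 7 left out as well it was -0.16 (22 of 31 lower), and with Cy3 only it was -0.34.

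Ribosomal protein genes and proteasome genes also had medians below 0 for brain minus heart, with 0 calls each. Of 53 ribosomal protein genes, 46 were lower in brain, with a median difference of -0.19, and 3 did not overlap (3.12% of all genes with brain lower). With Cy5 only 28 of 54 were lower with a median of -0.02, and with heart array 7 left out as well 39 of 55 with -0.10. Rpl35 of the large subunit had 0.56, 0.18, 0.29 and 0.87 in heart and -0.39 to 0.16 in brain. Of 27 proteasome and ubiquitin genes, 23 were lower in brain, with a median of -0.20, which was -0.10 without heart replicate 3. With Cy5 only 14 of 27 were lower with a median of -0.02, and with array 7 left out as well 19 of 30 with -0.04. Psmd5, a chaperone of proteasome assembly, had 0.38, 0.47, 0.54 and 0.48 in heart and -0.42 to -0.05 in brain. With Cy5 only the difference of Psmd5 was -0.36, and -0.13 with heart array 7 left out as well. Psmb3, a subunit of the core, differed by -1.06 and by 0.17 with Cy3 only.

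The median difference of extracellular matrix genes, which fibroblasts make, moved little with the dye, although the list median within an organ did move. Of 34 tested, 0 were called and 28 were lower in brain (49.1% of all genes), with a median difference of -0.23 and medians of -0.02 in brain and 0.22 in heart. The replicates did not overlap for 2 genes lower in brain (3.12% of all genes) and 1 higher (3.98%). The median difference was -0.21 with Cy5 only and -0.22 with Cy3 only. On the brain arrays the list median ran from 0.03 to 0.16 with sighted RNA in Cy5 and from -0.21 to -0.01 with Cy3. On the heart arrays it ran from 0.22 to 0.35 with Cy5 and from -0.05 to 0.30 with Cy3. Col1a1, a chain of type I collagen, had 0.64, 1.17, 0.38 and 0.45 in heart and -0.48 to 0.09 in brain, a difference of -0.78 with a standard error of 0.20. Col1a2, the other chain of this collagen, differed by -0.52, also without overlap. Dcn, a small proteoglycan of connective tissue, had 0.49, 0.39, 0.34 and 0.15 in heart and -0.55 to 0.20 in brain. Loxl1, which cross-links elastin, went the other way, with -0.50 in heart and 0.22 in brain. The 4 fibroblast markers with a value in heart (Col1a1, Col1a2, Col3a1 and Dcn) ran from 0.34 to 0.66 there and from -0.23 to -0.02 in brain. The part of fibroblast content in these values was not tested.

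Of 26 cardiomyocyte genes tested, 0 were called and 22 were lower in brain, with a median difference of -0.15, which was -0.09 without heart replicate 3. Pln, the brake on the calcium pump, had 0.62, 0.64, 0.45 and 0.39 in heart, and its brain values ran from -1.43 to 0.25. Tcap, a protein of the sarcomere, had 0.38, 0.53, 0.23 and 0.39 in heart and -0.32 to 0.14 in brain. Among myosin genes the heart mean was 0.17 ± 0.05 for Myl2, 0.08 ± 0.14 for Myl3 and 0.11 ± 0.07 for Myh7 (SD, n = 4 each). The atrial myosin genes Myl4 and Myl7 had -0.11 ± 0.09 and -0.08 ± 0.46 in heart (SD, n = 4 each) and 0.13 and 0.03 in brain, the other direction. The part of cardiomyocyte content in the mitochondrial values was not tested.

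Lists of brain cell genes had medians of either sign, with 0 calls. Of 17 synapse genes 7 were lower in brain, with a median difference of 0.08, and of 12 genes of striatum and cortex 4 were, with 0.14. The synapse median ran from -0.05 with Cy5 only (9 of 17 lower) to 0.19 with small whole-number ratios missing (3 of 13). The striatum and cortex median ran from -0.06 with a value needed in every replicate (3 of 6 lower) to 0.22 with Cy3 only (6 of 14). Homer1, a scaffold of excitatory synapses, had -0.74 to 0.21 in brain and 1.55, 0.56 and 1.98 in heart, a difference of -1.55 with a standard error of 0.34. Of 15 myelin and glia genes 10 were lower in brain, with a median of -0.16. Their replicate medians ran from -0.09 to 0.02 in brain and from 0.04 to 0.19 in heart. The 7 with a value in every replicate were all lower in brain, with a median of -0.32, while without heart replicate 4 it was -0.09 (11 of 18 lower) and with probes averaged after pairing -0.04 (9 of 15). Among these genes Apoe, the lipid carrier, had 0.58, 0.53, 0.39 and 0.18 in heart and -0.31 to -0.08 in brain, while Aqp4, the water channel of astrocytes, had -0.38, -1.03 and -0.54 in heart and -0.11 to 0.37 in brain. Ttr, the thyroid hormone carrier of choroid plexus, had -0.42, -0.30, -0.67 and -0.58 in heart and -0.54 to 0.51 in brain. The leukocyte list had a median difference of -0.01 (24 genes), the heat shock list -0.06 (17 genes) and the antigen presentation and interferon list -0.10 (21 genes), which ran from -0.21 without heart replicate 1 to -0.05 without brain replicate 5 or heart replicate 3.

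Stress defence genes were mixed. Of 29 antioxidant and metallothionein genes 22 were lower in brain, with a median of -0.17, which was -0.11 without brain replicate 2, -0.01 with Cy5 only and 0.05 with array 7 left out as well. Hmox1, which breaks down haem, had 1.18, 0.39 and 1.08 in heart and -0.54 to 0.28 in brain. Prdx1, a peroxidase, had 0.32, 0.33, 1.11 and 0.68 in heart and -0.30 to 0.28 in brain. Gstt1 and Srxn1 went the other way, with differences of 0.41 and 0.52.

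**Figure D4:**
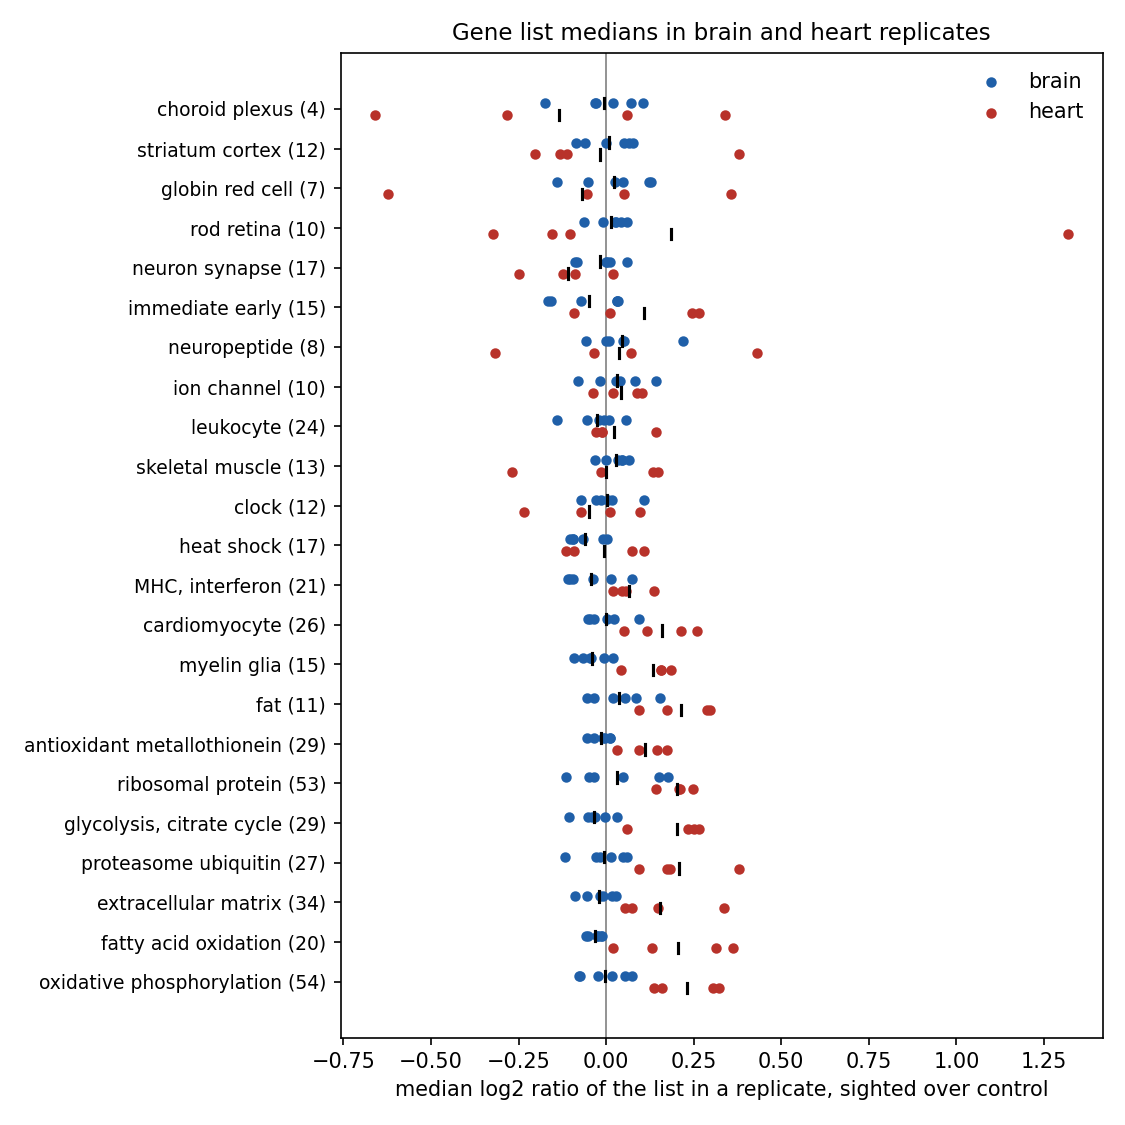
Median log2 ratio of sighted over control RNA of each gene list in each replicate of brain (blue) and heart (red), with the number of genes tested in both organs in brackets and the mean over replicates as a black bar. Oxidative phosphorylation genes lie between 0.14 and 0.32 in the heart replicates and between -0.08 and 0.07 in the brain replicates, and lists at the top have heart replicates on both sides of 0.

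The genes with the smallest p of the difference, whatever their list, were taken 5 in each direction. Higher in brain were Higd1b, Mllt10, Hpn, Sdcbp2 and Crabp1, and lower in brain, besides Egr1, Gh, Psmb3 and Psmd5, was Tle4. All had an adjusted p of 0.571. Higd1b, of a family of hypoxia-induced genes, had -1.84, -1.37 and -1.08 in heart and -0.82 to 0.58 in brain, a difference of 1.43 with a standard error of 0.27. It was 2.36 with Cy5 only and 0.50 with Cy3 only. Crabp1, which binds retinoic acid, had -0.78, -0.80 and -1.39 in heart and -0.26 to 0.23 in brain, and its difference of 1.02 turned to -0.03 with Cy5 only.

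Hpn, a membrane protease, had -1.11, -0.26, -0.65 and -0.71 in heart and -0.01 to 0.56 in brain, a difference of 0.87 with a standard error of 0.20. Mllt10, a chromatin factor, had -0.37, -0.38, -0.53 and -0.76 in heart, and its highest brain value was 1.21. Tle4, a corepressor, had the widest difference of the 10, -2.01 with a standard error of 0.45. Of its 40 probe values on the brain and heart arrays, 15 were missing, at the ceiling or log2 ratios of small whole numbers.

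**Figure D5:**
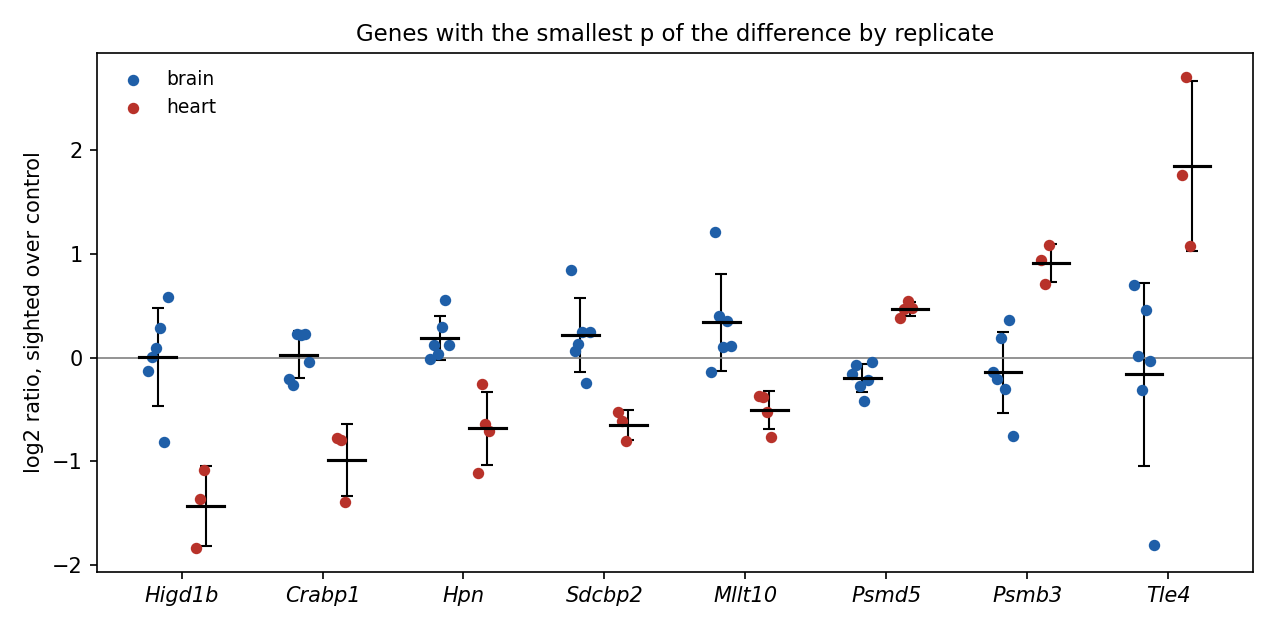
Log2 ratios of sighted over control RNA in each brain (blue) and heart (red) replicate for 8 of the 10 named genes with the smallest p of the difference, with mean and SD as black bars. The groups do not overlap for any of them, and no difference passed over all genes.

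The mean of both organs was tested as well. It can be carried by either organ alone, and the control mice are the same, so it does not show that both organs share a change. No gene among 12729 (0%) passed, and the smallest adjusted p was 0.508. The unadjusted p was under 0.05 for 1156 genes (9.08%), of which 546 (4.29%) were higher and 610 (4.79%) lower in sighted RNA. The named genes with the smallest p were higher for Fhl1, Socs7, Cmpk1 and Nos2 and lower for Far1, Higd1b, Gdf9 and Tifab. Higd1b had a mean of 0.00 in brain and -1.43 in heart, and Socs7 had 0.06 and 0.84. Fhl1, a LIM protein of muscle, had 0.88, 1.22 and 1.07 in heart and -0.44 to 0.76 in brain, and its mean of 0.65 turned to -0.11 with ceiling values kept. Far1, which makes fatty alcohols, had -0.94, -0.97 and -0.97 in heart and -1.04 to 0.19 in brain. Its mean was -0.63 with a standard error of 0.11 (adjusted p = 0.508).

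Nos2, the inducible nitric oxide synthase, had 0.47, 0.55, 0.56 and 0.60 in heart and -0.05 to 0.24 in brain, and its mean lay between 0.31 and 0.35 in all 23 alternatives. Cmpk1, a nucleotide kinase, had 0.44, 0.57, 0.67 and 0.64 in heart and -0.06 to 0.20 in brain. Its mean of 0.34 was 0.06 with Cy5 only and 0.62 with Cy3 only. Tifab had -0.77 to 0.03 in brain and -0.81 to -0.19 in heart, and its mean of -0.44 turned to 0.11 with Cy5 only.

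Genes beside Pde6b travel with it when a line is bred, so they were read as a group. Pde6b lies on chromosome 5 and had no probe. Of the 50 named genes nearest to it in RefSeq order, 25 on each side, 18 had a probe and 16 were tested, with a median mean of 0.01 and 0 calls, and 2 had an unadjusted p under 0.05 (9.08% of all genes). They were Lrrc8c, with a mean of 0.77, and Glmn, with -0.32. Glmn had -0.12 to 0.16 in brain and -1.31, 0.09, -0.80 and -0.53 in heart, while its mean on the eye arrays was 2.00, with other control mice. Both turned sign with 1 dye orientation, Lrrc8c to -0.20 with Cy3 only and Glmn to 0.07 with Cy5 only.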

How the data were processed

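The authors deposited log2 ratios of the 2 dyes, taken as Cy5 over Cy3. How the spots were scanned, corrected and normalized is not given in the sources used here, and array medians from 0.002 to 0.217 show that not every array was centred. Total RNA was reverse transcribed and its cDNA labelled indirectly, per the labels' protocols. Both channels of brain array 3 are labelled Cy5, and its sighted RNA was taken to be in Cy5. The label of brain array 5 names no organ in its source field. All 32 columns were mapped.

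The repeated top value of an array equals the log2 of 1e+05 plus a constant of that array, and values above 15 (2734 on these arrays) were set to missing. The constant ran from -0.65 to 0.44 on brain arrays and from -0.69 to 0.86 on heart arrays. Small whole-number ratios are values that, less this constant, equal the log2 ratio of whole numbers up to 4. Of 20794 probes 12771 carried 1 symbol, 0 carried several and 8023 carried none and kept their number. The named probes gave 9030 genes. Of these symbols 0 were changed by a check against RefSeq's GRCm38.p6 table. Probes of a gene were averaged, ratios with sighted RNA in Cy3 were turned, and consecutive arrays were averaged where both had a value. A gene needed 5 brain and 3 heart replicates.

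Each organ was fitted with limma 3.58.1 in R 4.3.3. The difference and the mean of the organs used each organ's moderated variance with Satterthwaite degrees of freedom, two-sided, with Benjamini-Hochberg adjustment over all genes. Permutation tests and figures used Python with scipy. The limma tests were also run on simulated independent replicates with the spread of each gene and organ. That simulation had no dye effect and no shared control mice, so it cannot show how the tests behave with these. The tests do not model the shared control mice. No label says whether brain and heart replicates with the same number come from the same mouse. The correlation of their deviations lay between -0.01 and 0.03. Arrays averaged as a pair within an organ had 0.0053 in brain and -0.014 in heart. No label says that those arrays share a sample either, so these values decide neither pairing.

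Named genes were the 5 of smallest p in each direction of the difference, the 4 of smallest p in each direction of the mean, up to 2 members of each of 24 gene lists, Gh, Prl and Npy, and 3 neighbours of Pde6b. Other genes named for a list were chosen after their values were seen. The organs, gene lists and rules were chosen with earlier results of these data known. Alternatives were every array on its own, a shared spread, centred arrays, other handling of ceiling and missing values, 1 dye, a filter on spread, robust moderation, a replicate block and each replicate left out. The handling of small whole-number ratios, the order of averaging, the dye setting without heart array 7 and the alternatives for lists were added after seeing the data.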

Additional observations from a re-analysis of the deposited data

Results flagged for a closer look

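Of 155 groups of replicates or arrays tested for a value far from the rest, 13 had such a value. For independent groups chance gives about 1 in 20. These groups share genes and replicates, so their 13 cannot be read against that rate. Among single genes in brain, replicate 3 stood apart for Pln, at -1.43 against -0.21 to 0.25 in the others, and for Apoe, at -0.31 against -0.16 to -0.08. Replicate 5 stood apart for Pde10a, a striatal phosphodiesterase, at -0.52 against 0.04 to 0.33, and for Plin2, a lipid droplet protein, at 0.57 against -0.14 to -0.04. Nmb, a neuropeptide gene, had -0.19 in replicate 4 against -0.02 to 0.05, and Tcap had -0.32 in replicate 6 against -0.01 to 0.14. In heart, Cs had 1.18 in replicate 4 against 0.49 to 0.58, and Cacna1c, a calcium channel gene, had 0.049 in replicate 3 against 0.22 to 0.23.

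Heart replicate 4 had list medians apart from the others for glycolysis and citrate cycle genes (0.061 against 0.23 to 0.26), for striatum and cortex genes (0.38 against -0.20 to -0.11) and for rod and retina genes (1.32 against -0.32 to -0.10). Of the 10 rod and retina genes tested, 2 had a value in every replicate, and of the 12 striatum and cortex genes 6 had. These medians of heart replicate 4 can therefore rest on few genes. Heart replicate 3 stood apart for leukocyte genes (0.14 against -0.03 to -0.01). Heart array 7, which is part of replicate 4, had 61.6% missing values against 5.96 to 11.99% on the other heart arrays.

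For 3 of the named genes every brain replicate lay below 0 and every heart replicate above 0. The difference was -0.67 for Psmd5, -0.52 for Idh3g and -0.56 for Apoe. None passed the test of the difference over all genes (limma adjusted p = 0.571 each). For 44 of all genes (0.346%), the replicates of the organs lay wholly on opposite sides of 0. Psmd5, Idh3g and Apoe were named for a small p of this same difference, so their number cannot be set against that share.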

How the results depend on the processing

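The difference between the organs had 0 calls in 22 of 23 alternatives and 6 without the 20% of genes with the largest spread. There 1468 of 10183 genes had an unadjusted p under 0.05, against 1105 of 12729. That filter acts on the spread that also enters the test. Its calls here and for the mean are therefore no independent support. The mean of both organs had 0 calls in 18 of 23, 1 with every array on its own, 3 with a shared spread, 1266 with Cy3 only, where the dye effect does not cancel, 7 without the genes of largest spread and 1 with small whole-number ratios missing. Brain alone (1 call) had 3 with every array on its own, 0 with ceiling values kept, 2 with a value needed in every replicate, 736 with Cy5 only, with or without heart array 7, 1327 with Cy3 only, 2 with small whole-number ratios missing, and 0 to 1 when a replicate was left out. Heart alone (0 calls) had 483 with a shared spread, which pools in the smaller spread of brain. With the replicate block, which pairs arrays by number alone, the difference and the mean had 0 calls each, so the block changed no call. With Cy5 only, Crabp1 turned to -0.030 in the difference, and Tifab to 0.11, Glmn to 0.066 and Tmem175 to 0.069 in the mean, where heart array 7 left out as well gave 0.18 for Tifab. With Cy3 only, Psmb3 turned to 0.17 and Lrrc8c to -0.20. With ceiling values kept, Fhl1 turned to -0.11. For the other changes the cause was not tested. The wide heart spread, the 4 heart replicates and the missing values limit what a gene can show, and single-dye values carry the dye effect of each gene.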
